A study of Homo sapiens with 22 samples.

Results

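HEK 28 is a line of human embryonic kidney 293 cells whose genotype label reads full-length coagulation factor VIII, and its 2 RNA-seq libraries (a and b) were set against the 8 libraries of 4 clones titled FL 4, FL 7, FL 9 and FL 10. These are 10 of the 22 libraries of the series, selected by their titles, and all 10 were used. The other 12 libraries came from 6 clones with B-domain deleted factor VIII (BDD clones 1, 2, 7, 12, 13 and 27), which served only as context and, in the model, for the spread between clones. HEK 28 and the FL clones carry the same genotype label, every sample of the series has HEK28 as its cell line label, and no sample was treated. What sets the line titled HEK 28 apart from the FL clones is therefore not given in the sources used here, nor are the promoter of the transgene, its integration site or the number of founding cells. Nothing in the labels tells if a and b are separate cultures, so p-values measure the spread between these clones, which may in part be technical. Cells were grown in plates and their total RNA was sequenced.

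Factor VIII is a large secreted glycoprotein that folds slowly in the endoplasmic reticulum, where the cargo receptor formed by LMAN1 and MCFD2 collects it for transport to the Golgi. Its B domain carries most of its N-glycans and is not needed for clotting activity. HEK293 is an established, aneuploid line whose sublines can differ in the number of copies of whole chromosomes or arms, and RNA levels of most genes follow the number of copies of the gene. Where a segment differs in dosage, the difference is seen as a shift of many neighbouring genes rather than of single genes. DNA copy number was not analysed here, and the values below are RNA levels.

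Libraries held between 4951081 and 6197084 reads, with 5718736 and 5671671 in HEK 28 a and b. Levels are log2 CPM (reads of a gene relative to the depth of its library, on a log2 scale) as deposited, with a floor of -1.45 that stands for 0 reads. Of 15797 genes, 15260 passed a filter of at least 1 CPM in both libraries of at least 1 of the 5 clones compared, so a gene absent from the FL clones could pass only by being high in HEK 28. No gene passed an adjusted p of 0.05 in limma fitted on clone means over all 11 clones, so 0% were called, and the lowest adjusted p was 0.111. The fit takes HEK 28 to vary like the other clones, since the spread of 1 line cannot be estimated. At an unadjusted p under 0.05 there were 804 genes (350 higher and 454 lower in HEK 28), and limma-voom on whole reads recovered from the values called 3. The sections that follow are thus descriptions of where HEK 28 lay relative to the range of the FL libraries. Both HEK 28 libraries lay above all 8 FL libraries for 941 genes (6.17%) and below all 8 for 936 genes (6.13%). With FL clone 10 left out the first count was 1434, and with FL clone 7 left out the second was 1438. With HEK 28 library a or b left out, the counts were 1898 and 2039 above and 1915 and 2002 below. At the edge of the rule, PSMD4 counted as above with 8.73 and 8.83 log2 CPM in HEK 28 and a highest FL value of 8.73 (a gap of 0.00077), and SNX10 did not, with 4.84 and 4.71 against a highest FL value of 4.75. The nearest libraries of the groups were at least 0.5 apart on the log2 scale for 95 of the higher and 65 of the lower genes, and at least 1 apart for 24 and 8. The median difference over all genes tested was 0.0075.

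F8, the gene of factor VIII (ENSG00000185010, minus strand of chromosome X, 154835788 to 155026940 on GRCh38), was the targeted gene, and HEK 28 had more of its RNA than any FL library. The level in HEK 28 was 8.94 log2 CPM in library a and 8.85 in library b. FL clone 4 had 7.69 and 8.05, FL clone 7 had 7.27 and 6.94, FL clone 9 had 7.39 and 7.46, and FL clone 10 had 7.90 and 7.68. The groups did not overlap, the nearest libraries were 0.80 apart, and F8 was also above all 12 BDD libraries, the highest of which had 7.80. The BDD transgene lacks the B domain and CPM is not corrected for transcript length, so F8 levels of BDD libraries are not a like measure. Against the FL mean of 7.55 ± 0.35 (SD, n = 4) the difference was 1.35 (SE 1.43), a 2.55-fold higher level, with a limma adjusted p of 0.995. The SE is wide because the fit shares 1 estimate of spread with the BDD clones, whose F8 level ranged from 1.98 to 7.80 between libraries. An exact two-sided permutation test over the 5 clones gave p = 0.2, the smallest value its 5 arrangements allow. These levels rest on 2757 and 2561 reads in HEK 28 and on 646 to 1609 reads per FL library. Reads of the native gene would be counted with those of the transgene, as could reads of FUNDC2, whose annotated span overlaps F8.

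**Figure D1:**
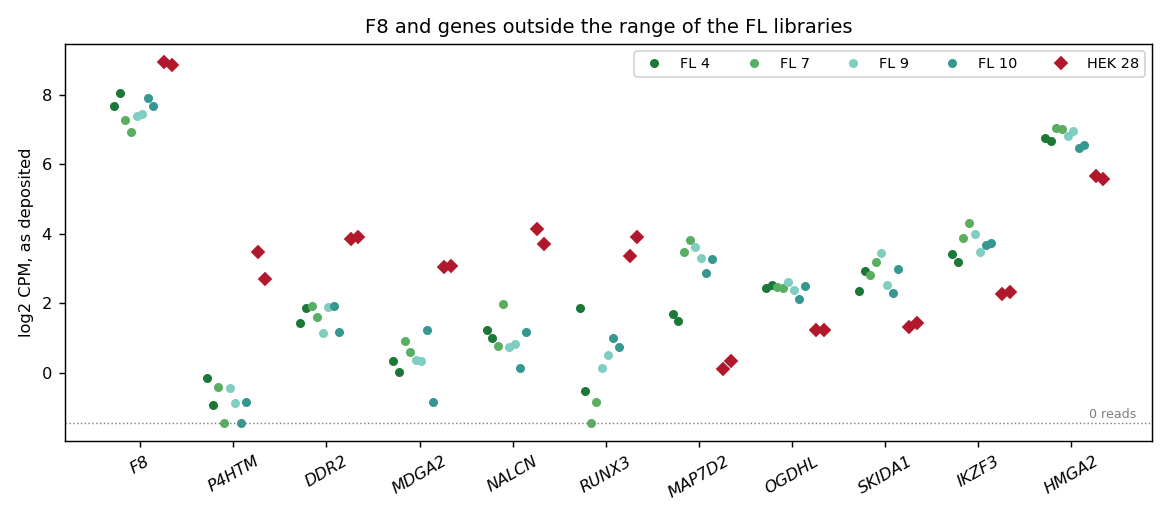
Log2 CPM of F8, 5 genes above and 5 genes below the range of the FL libraries, with 1 point per library (circles, FL clones by colour; diamonds, HEK 28) and a dotted line at the level of 0 reads. In each of the 11 genes both diamonds lie on one side of all 8 circles, which for all but F8 follows from the rule that chose them. The diamonds of F8 are at 8.94 and 8.85 against a highest FL value of 8.05.

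Chromosome 7 was the chromosome with the largest shift in HEK 28, and it was toward lower RNA. Over 648 genes with a mean of at least 1 log2 CPM, the median difference from the mean of the FL clones was -0.41 (quartiles -0.61 and -0.23), or 0.754 of the FL level. Library a gave -0.42 and library b gave -0.41, while the 8 FL libraries lay between -0.0044 and 0.060 and the 4 FL clones had an SD of 0.016. Each FL clone is part of the mean it was set against, which draws its value toward 0. In HEK 28, 579 of the 648 genes (89.4%) had a level under the FL mean. The BDD clones, which are not part of that mean, had medians of -0.11 to -0.047. Of 738 chromosome 7 genes in the test, HEK 28 was below all FL libraries for 210 (28.5%, against 6.13% of all genes tested) and above for 4 (0.542%). Reads from chromosome 7 made up 2.45% and 2.44% of the libraries of HEK 28 and 3.06% to 3.46% of the FL libraries.

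The shift ran along the whole of chromosome 7 rather than over one arm. The chromosome was divided into 16 bins of 10 Mb that held at least 10 genes each. All 16 had a median under 0 and below that of each of the 4 FL clones, and their medians ranged from -0.50 to -0.31. It was also similar at all levels of expression: -0.38 for genes of 1 to 3 log2 CPM, -0.43 for 3 to 5, -0.42 for 5 to 7 and -0.35 above 7. The 534 protein-coding genes had a median of -0.41.

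**Figure D2:**
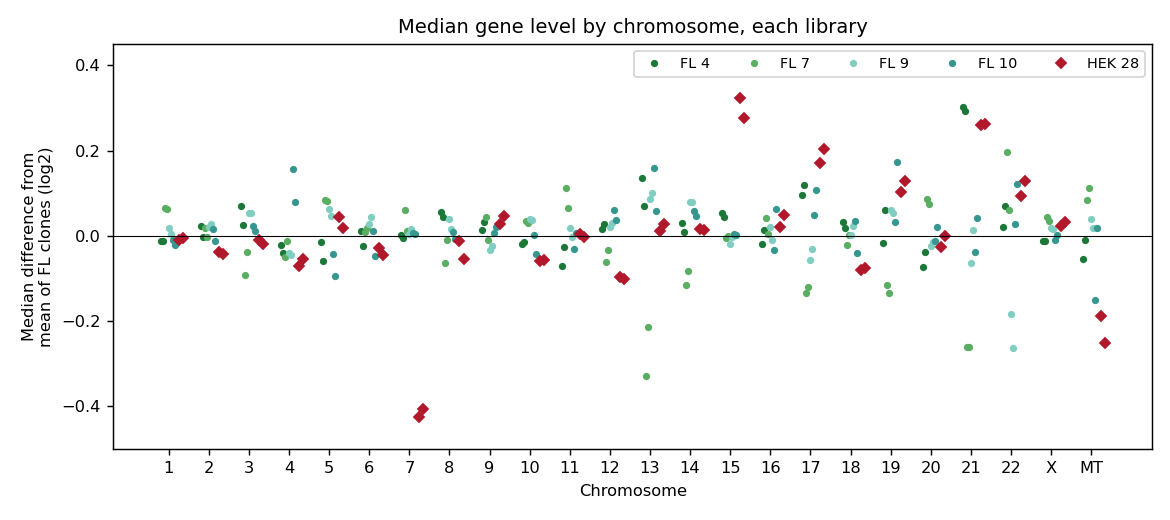
Median over the genes of each chromosome of the difference from the mean of the FL clones (log2), with 1 point per library (circles, FL clones by colour; diamonds, HEK 28). HEK 28 lies farthest from the FL libraries on chromosome 7 (-0.42 and -0.41) and chromosome 15 (0.32 and 0.28). By smaller gaps it is also above all of them on chromosome 17 (0.17 and 0.20) and below all of them on chromosomes 2, 4, 10, 12, 18 and MT, while on chromosome 21 its values of 0.26 lie within their spread.

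A list of 33 well-known chromosome 7 genes had 30 members tested, of which 18 were below all FL libraries and none above, with a median of -0.50. The shares below were 6.13% over all genes tested and 28.5% over chromosome 7. CDK6, a kinase that drives the entry into the cell cycle, had 5.61 and 5.73 log2 CPM in HEK 28 and 6.11 to 6.81 in the FL libraries, a 1.83-fold lower level. CAV2, a protein of caveolae, had 3.60 and 3.38 against 3.83 to 4.62. The growth factor receptor gene MET had 5.29 and 5.64 against 5.83 to 6.10. BRAF, a kinase of the MAP kinase cascade, had 5.11 and 5.23 against 5.27 to 6.25, and RHEB, the small GTPase that activates mTORC1, had 4.82 and 5.34 against 5.50 to 6.14. These 5 genes were picked among the 18 below the range, so the groups do not overlap in them. The gaps for MET, BRAF and RHEB were smaller than the difference between HEK 28 libraries a and b in the same gene. RAC1, a small GTPase of the cytoskeleton, had 8.96 in both HEK 28 libraries and 9.24 to 9.50 in the FL libraries. ACTB, which encodes beta-actin, did not stand apart, with 9.37 and 9.51 against 9.40 to 9.89. EGFR had 4.32 and 3.43 against 4.26 to 4.88, so that 1 of its HEK 28 libraries lay inside the FL range. SNX10, a sorting nexin, was the 1 tested gene of the list with a positive difference (0.57), at 4.84 and 4.71 against 3.80 to 4.75.

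Among the chromosome 7 genes with a wide gap below the FL range was SUGCT, a mitochondrial CoA-transferase gene, which differed by more than the chromosome as a whole. It had 3.40 and 3.05 log2 CPM in HEK 28, and the FL libraries had 4.41 to 4.93. Its difference was -1.48 (limma SE 0.31, adjusted p = 0.481), a 2.79-fold lower level, and HEK 28 was also below all BDD libraries (3.42 to 4.63). By the rule that chose the genes of this paragraph, both HEK 28 libraries lay outside the FL range. The means of the FL clones had an SD of 0.04 (n = 4), while the 2 libraries of FL clone 4 had 4.93 and 4.41. HOXA13, a homeobox gene, had 0.84 and 1.34 against 2.24 to 3.09, and it overlaps the noncoding gene HOTTIP. SEMA3A, a secreted axon guidance protein, had 2.47 and 2.74 against 3.56 to 4.17. MOSPD3 had 2.72 and 2.43 against 3.55 to 3.95, and the zinc finger gene ZNF138 had 2.32 and 2.23 against 3.12 to 3.92. In the other direction PTN, which encodes the growth factor pleiotrophin, had 2.72 and 2.85 in HEK 28 and ranged from -1.45 to 1.81 in the FL libraries. EFCAB10 had 4.28 and 4.78 against 0.69 to 3.97, with 3.92 and 0.69 in the libraries of FL clone 9 alone, and it overlaps RINT1. CCDC136 had 3.07 and 3.08 against 2.10 to 2.93, a difference of 0.44, and the BDD libraries lay higher still, at 3.52 to 4.81.

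Chromosome 15 was shifted the other way. Over 441 genes the median difference was 0.30 (quartiles 0.088 and 0.52), or 1.23 times the FL level. Library a gave 0.32 and library b 0.28, the FL libraries lay between -0.020 and 0.054, and the SD over the 4 FL clones was 0.034. In HEK 28, 362 of the 441 genes (82.1%) had a level over the FL mean. Of 520 chromosome 15 genes in the test, HEK 28 was above all FL libraries for 109 (21.0%, against 6.17% of all genes tested) and below for 2 (0.385%). The shift was not particular to HEK 28 among the clones of the series, since BDD clone 13 had a median of 0.39 and BDD clone 7 of 0.42 against the same FL mean, while the other 4 BDD clones lay between -0.043 and 0.055. Chromosome 15 made up 2.93% and 2.87% of reads in HEK 28 and 2.19% to 2.55% in the FL libraries.

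All 9 bins of 10 Mb along chromosome 15 had a positive median, from 0.19 to 0.53, and in 8 of them HEK 28 was above each of the 4 FL clones. The FL clones were not alike at the start of the chromosome: in the bins from 20 to 40 Mb, FL clone 4 had medians of -0.50 and -0.64, and HEK 28 had 0.46 and 0.53. Part of the HEK 28 value in these bins therefore comes from the low level of FL clone 4 in the mean. Leaving out FL clone 4 or any other FL clone kept the median of the chromosome between 0.28 and 0.32. By level of expression the medians were 0.43 for genes of 1 to 3 log2 CPM, 0.29 for 3 to 5, 0.27 for 5 to 7 and 0.28 above 7.

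**Figure D3:**
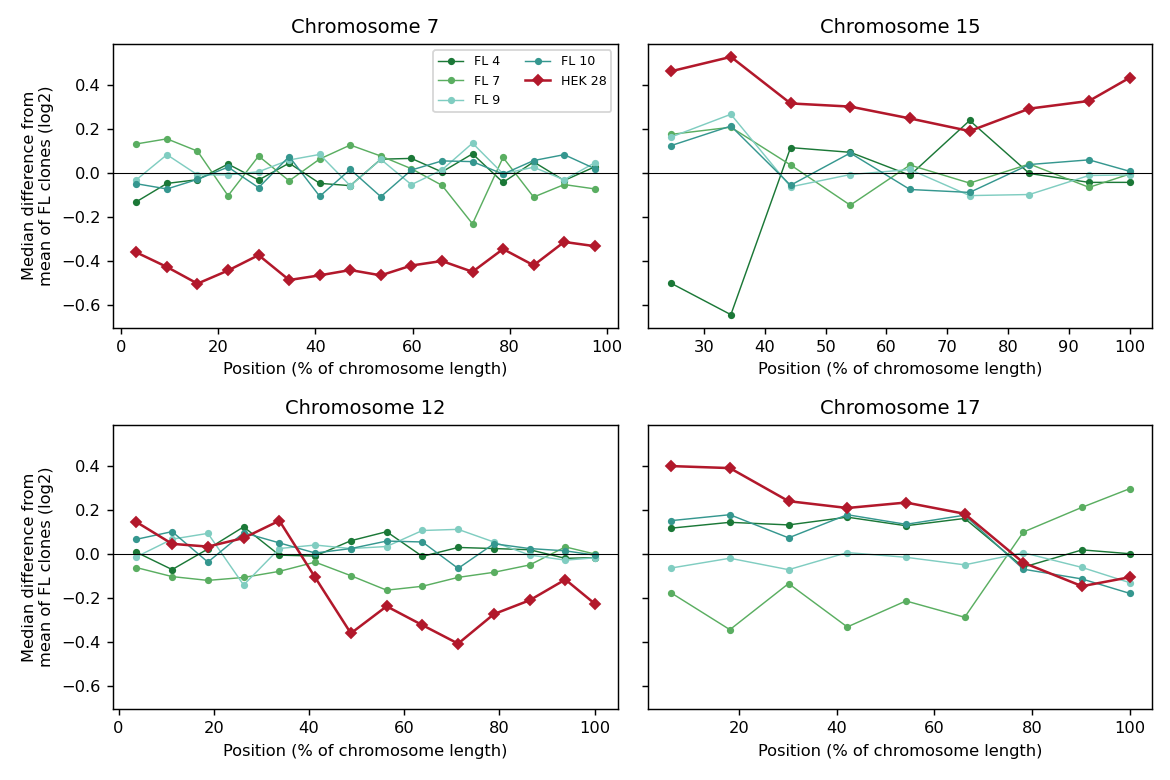
Median difference from the mean of the FL clones (log2) in bins of 10 Mb along chromosomes 7, 15, 12 and 17, plotted at the middle of each bin as a percentage of chromosome length (the last at the chromosome end), for HEK 28 (diamonds) and each FL clone (circles). HEK 28 is low along all of chromosome 7 (-0.50 to -0.31) and high along chromosome 15 (0.19 to 0.53). On chromosome 12 it is above 0 up to 50 Mb (0.035 to 0.15) and low over the later part. It is high on chromosome 17 up to 60 Mb (0.18 to 0.40). FL clone 4 is low in the first bins of chromosome 15, and FL clone 7 is low on chromosome 17 up to 60 Mb (-0.34 to -0.13).

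Among 33 tested members of a list of well-known chromosome 15 genes, HEK 28 was above the FL libraries for 8 and below for none, with a median of 0.30. The shares above were 6.17% over all genes tested and 21.0% over chromosome 15, whose median was also 0.30. The list thus did not stand apart from its chromosome. UBE3A, a ubiquitin ligase gene, had 7.29 and 7.18 log2 CPM in HEK 28 and 5.82 to 7.03 in the FL libraries. NIPA1, a magnesium transporter gene, had 4.07 and 4.20 against 1.94 to 3.48, with FL clone 4 the lowest at 2.39 and 1.94. TPM1, an actin-binding tropomyosin, had 5.50 and 5.60 against 4.43 to 5.04. FURIN, the protease that cleaves factor VIII and many other precursors in the Golgi, had 6.09 and 6.18 against 5.16 to 5.92. These 4 genes were picked among the 8 above the range, so the groups do not overlap in them. B2M, the light chain of HLA class I, did not stand apart, with 7.82 and 7.49 against 6.53 to 7.70, and IGF1R had 5.75 and 5.65 against 5.61 to 6.02.

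The widest gaps above the FL range on chromosome 15 fell partly in 1 small stretch. MYEF2, SEMA6D and DUT lie within a short distance of each other on that chromosome. MYEF2 had 4.44 and 4.70 log2 CPM in HEK 28 and 1.74 to 3.24 in the FL libraries, a 3.95-fold higher level, and it overlaps SLC12A1. SEMA6D, a membrane semaphorin, had 2.56 and 1.85 against -0.44 to 0.76. DUT, the dUTPase that keeps uracil out of DNA, had 8.57 and 8.53 against 7.58 to 7.96. By the rule that chose them, all 3 genes were above the FL range in both libraries. The BDD libraries reached 4.27, 1.97 and 8.40 for them. PDCD7 had 5.66 and 5.74 against 4.44 to 5.06, and ST8SIA2, a polysialyltransferase gene, had 2.42 and 1.78 against -1.45 to 1.17. SORD2P, a pseudogene of sorbitol dehydrogenase whose reads may be shared with SORD, was the exception: it had -0.15 and -0.46 in HEK 28 and 0.54 to 4.88 in the FL libraries, with 0.54 and 4.65 in the 2 libraries of FL clone 10. SORD itself had 4.16 and 4.29 against 3.57 to 4.80.

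Outside chromosomes 7 and 15 the median over 11999 genes was 0.0051, and the 4 FL clones had an SD of 0.014. HEK 28 was above the FL range for 828 of 14002 tested genes (5.91%) and below it for 724 (5.17%), close to the background of 6.17% and 6.13% over all genes. Chromosome 17 departed over part of its length. Its median over 761 genes was 0.19, with 0.17 and 0.20 in the HEK 28 libraries against -0.13 to 0.12 in the FL libraries, and of its 885 genes in the test 133 (15.0%) were above the FL range and 19 (2.15%) below. Bins from 20 to 60 Mb had medians of 0.18 to 0.24, and those from 60 Mb to the end had -0.15 to -0.038. In the bins from 20 to 60 Mb FL clone 7 had -0.33 to -0.13, which lowers the FL mean there. Between 50 and 60 Mb HEK 28 had 0.18, while FL clones 4 and 10 had 0.16 and 0.18. On chromosome 12 the HEK 28 libraries had -0.097 and -0.10, below all FL libraries (lowest -0.061). Its parts differed: of 14 bins, 9 had a HEK 28 median below each FL clone and 2 above each. The bins up to 50 Mb had 0.035 to 0.15. On the mitochondrial chromosome the HEK 28 libraries had -0.19 and -0.25 (lowest FL value -0.15), and the BDD clones had -0.82 to -0.29. Both HEK 28 libraries were also below all FL libraries on chromosomes 2, 4, 10 and 18, with medians of -0.040, -0.074, -0.051 and -0.087. Stretches with wider departures were chosen after their values were seen. On the first 20 Mb of chromosome 17 the median over 190 genes was 0.39, with 0.41 and 0.40 in the HEK 28 libraries, and 63 genes (33.2%) were above the FL range and 2 below. The FL clones were spread there, from -0.22 in FL clone 7 to 0.16. On chromosome 12 from 60 Mb to its end the median over 330 genes was -0.23, with the 4 FL clones between -0.051 and 0.024, and 62 genes (18.8%) were below the FL range and 5 above. The BDD clones lay between -0.12 and -0.084 on the chromosome 12 stretch. On chromosome 5 the bins from 30 to 40 and 40 to 50 Mb had HEK 28 medians of 0.49 and 0.53. In them 8 of 31 and 4 of 19 genes were above the FL range and 0 below. The FL clones were widely spread there, from -0.38 in FL clone 10 to 0.49 in FL clone 7. With the stretches of chromosomes 12 and 17 also left out, 757 (5.65%) of 13394 genes were above and 658 (4.91%) below. Those of chromosome 5 were kept in this count. On the X chromosome 58 of 513 tested genes (11.3%) were above and 20 (3.90%) below, though their median was 0.047. Between 10 and 20 Mb of the X chromosome, a bin chosen after its values were seen, 13 genes were above and 3 below. These are counts out of 40 genes with a mean of at least 1 log2 CPM. Of the 450 such genes on the whole X chromosome, 51 were above and 20 below.

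Among protein-coding genes elsewhere, those with the widest gap above the FL range were low in the FL clones. P4HTM, a prolyl hydroxylase of the endoplasmic reticulum membrane on chromosome 3, had 3.49 and 2.70 log2 CPM in HEK 28 and -1.45 to -0.14 in the FL libraries, a 15.0-fold higher level on this floored scale. It overlaps WDR6, and reads of the pair may be shared, since the sources used here do not state counting by strand. BDD libraries reached 3.28. DDR2, a collagen-binding receptor tyrosine kinase on chromosome 1, had 3.85 and 3.90 against 1.15 to 1.93. MDGA2, a cell-surface immunoglobulin protein of synapses on chromosome 14, had 3.04 and 3.08 against -0.85 to 1.24. NALCN, the sodium leak channel gene on chromosome 13, had 4.13 and 3.70 against 0.13 to 1.99, a difference of 2.93 (limma SE 0.48, adjusted p = 0.16), which is 7.60-fold. RUNX3, a transcription factor gene on chromosome 1, had 3.37 and 3.90 against -1.45 to 1.86, with 1.86 and -0.52 in the 2 libraries of FL clone 4. By the rule that chose these 5 genes, both HEK 28 libraries lay clear of the FL libraries. MDGA2 and NALCN were in addition above all 12 BDD libraries, whereas DDR2 reached 4.71 and RUNX3 reached 4.65 in BDD libraries.

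Further genes above the FL range were AFF2 on the X chromosome (2.56 and 2.53 against -0.47 to 1.05), the giant cadherin gene FAT3 (3.92 and 3.48 against 0.54 to 2.05) and GASK1A, a Golgi kinase-like gene (2.64 and 2.57 against -0.47 to 1.24). DHRS2, a short-chain dehydrogenase gene, was the most abundant of the 12 with 6.13 and 6.09 against 3.66 to 5.01. The host gene MIR325HG had 2.10 and 2.48 against -1.45 to 0.89. FCF1P7, a processed pseudogene on chromosome 1 inside the span of SDCCAG8, and LINC01655, a long noncoding RNA, had 0 reads in all 8 FL libraries and 55 reads each over the HEK 28 libraries. With 3 reads over the 8 FL libraries as the limit that 0 reads allow, the pooled reads gave a level at least 71.8-fold higher in HEK 28 for each. That limit covers the counting of reads only and leaves out the spread between clones. Both genes were chosen for a wide gap. FCF1P7 had the lowest adjusted p of the limma fit, but it passed the filter only through HEK 28. It was at 0 reads in all 12 BDD libraries too, so its SD between clones was 0 among both FL and BDD clones. Its limma SE of 0.57 was thus drawn from the spread of other genes, and its p does not measure a spread seen for FCF1P7. LINC01655 also passed the filter only through HEK 28. It had a limma adjusted p of 0.813 and reached 3.15 in a BDD library.

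Genes below the FL range elsewhere had narrower gaps. MAP7D2, a microtubule-associated protein of the X chromosome, had 0.11 and 0.34 log2 CPM in HEK 28 and 1.50 to 3.83 in the FL libraries, with FL clone 4 the lowest at 1.71 and 1.50. HMGA2, an architectural chromatin protein of embryonic cells on chromosome 12, had 5.68 and 5.59 against 6.46 to 7.04. Its difference was -1.15 (limma SE 0.22, adjusted p = 0.371), a 2.22-fold lower level, and its BDD libraries had 5.66 to 6.20. IKZF3, a transcription factor best known in lymphocytes, had 2.27 and 2.33 against 3.18 to 4.31 and was below all BDD libraries (3.80 to 5.18). OGDHL, a mitochondrial dehydrogenase gene on chromosome 10, had 1.22 and 1.23 against 2.12 to 2.61, and SKIDA1 on the same chromosome had 1.33 and 1.44 against 2.29 to 3.45. By the rule that chose them, no HEK 28 library reached the lowest FL library in these 5 genes. TIMM23B, whose reads may be shared with its copy TIMM23, had 1.91 and 1.85 against 2.76 to 3.89. The ferric reductase gene CYBRD1 had 1.33 and 1.62 against 2.37 to 3.24.

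The remaining lower genes included CHST11, a chondroitin sulfotransferase gene, with 3.40 and 2.99 against 4.12 to 4.72, LINC01619 with 2.10 and 2.23 against 2.95 to 3.82, and LRIG3 with 0.33 and 1.78 against 2.49 to 2.78. HMGA2, CHST11 and LINC01619 lie on the stretch of chromosome 12 that was low as a whole, and their differences (-1.15, -1.10 and -1.20) were larger than its median of -0.23. MIR181A1HG, the host gene of a miR-181a, had 1.52 and 1.34 against 2.24 to 3.16. INA, a neuronal intermediate filament gene, had 1.22 and 1.70 against 2.37 to 3.13. Over all genes tested, 20 had 0 reads in both HEK 28 libraries, and 5 of these were below all FL libraries, CARD6 and IQCA1 among them, with 30 and 45 reads over the 8 FL libraries.

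Gene lists were described by counts outside the FL range and by medians, and no member of any list passed the limma test. The integrated stress response is the programme by which the kinases EIF2AK3 and EIF2AK4 and others slow translation and raise the factor ATF4, which turns on genes of amino acid supply and, under lasting stress, the factor CHOP (DDIT3). Of its 33 genes tested, HEK 28 was above the FL range for 11 and below for none, the median difference was 0.43, and 31 of 33 differences were positive, while 6.17% of all genes tested were above and their median was 0.0075. TRIB3, a pseudokinase induced by ATF4 and CHOP, had 4.70 and 4.65 log2 CPM in HEK 28 and 3.50 to 4.27 in the FL libraries. CARS1, the cysteinyl-tRNA synthetase gene, had 7.43 and 7.75 against 6.50 to 7.00, and SESN2, a sensor of leucine, had 8.26 and 8.23 against 7.27 to 8.12. These 3 genes were picked among the 11 above the range, so the groups do not overlap in them. PCK2, the mitochondrial PEP carboxykinase gene, had 6.36 and 6.34 against 4.26 to 6.06, and PSAT1, of serine synthesis, had 8.53 and 8.43 against 6.64 to 8.27, where FL clone 7 held the 2 lowest values of each. The factors themselves did not stand apart: ATF4 had 10.91 and 10.79 against 10.29 to 11.18, and DDIT3 had 3.80 and 3.75 against 2.96 to 4.33.

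The FL clones differed among themselves over this list. FL clone 7 had a list median of -0.43 against the FL mean and FL clones 4, 9 and 10 had 0.01, 0.25 and 0.22. The stress-induced transcription cofactor gene NUPR1 had 3.00 and 3.64 in FL clone 7, 5.45 to 6.89 in the other FL libraries and 6.94 and 7.02 in HEK 28. Without FL clone 7, 11 genes were still above the range of the remaining FL libraries, 1 was below, and the median was 0.26. The BDD clones had list medians of 0.44 to 0.78 against the same FL mean. Of the 33 genes, 2 lie on chromosome 7 and 2 on chromosome 15. EIF2AK4, which senses uncharged tRNA, is one of those on chromosome 15, with 6.60 and 6.68 against 5.04 to 6.24.

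To show sequence that ATF4 is known to recognise, RefSeq promoter windows (GRCh38.p14, 250 bases before to 50 after a start, 300 bases in all) of the list were searched for TGATGNAA on either strand (TTNCATCA on the other). Of 33 genes, 26 had a window, and 6 of these held a match: ASNS, ATF3, CARS1, CEBPG, CHAC1 and SLC3A2. Of all 27305 gene names with windows 4.46% held a match, and of all 35116 windows 3.62%. Among the 10 genes above the FL range that had a window, 1 held a match, CARS1. A match is a description of the letters in the window and not a measured binding site. Shown here are CARS1, which was above the FL range (chr11:3057374-3057673, minus strand), CHAC1 (chr15:40953221-40953520, plus strand), and ASNS, which lies on chromosome 7 (chr7:97872359-97872658, minus strand), with the matched bases in capitals.
CARS1: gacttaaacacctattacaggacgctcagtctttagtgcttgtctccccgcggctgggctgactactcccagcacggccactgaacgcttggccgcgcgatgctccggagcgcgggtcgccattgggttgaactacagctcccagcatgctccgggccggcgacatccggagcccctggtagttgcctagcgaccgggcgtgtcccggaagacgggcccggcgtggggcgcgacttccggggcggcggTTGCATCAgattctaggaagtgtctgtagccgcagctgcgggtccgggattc
CHAC1: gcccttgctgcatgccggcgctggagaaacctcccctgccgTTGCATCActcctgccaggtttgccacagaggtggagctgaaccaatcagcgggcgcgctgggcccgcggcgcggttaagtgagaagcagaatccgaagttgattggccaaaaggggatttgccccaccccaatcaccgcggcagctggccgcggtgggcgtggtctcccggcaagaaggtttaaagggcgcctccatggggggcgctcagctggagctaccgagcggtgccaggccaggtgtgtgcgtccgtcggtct
ASNS: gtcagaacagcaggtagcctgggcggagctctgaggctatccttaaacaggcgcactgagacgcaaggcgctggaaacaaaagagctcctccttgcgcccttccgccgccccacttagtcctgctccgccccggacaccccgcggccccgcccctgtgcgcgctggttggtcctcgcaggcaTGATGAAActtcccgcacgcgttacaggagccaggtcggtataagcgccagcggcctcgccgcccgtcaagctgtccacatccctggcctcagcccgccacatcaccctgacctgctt
CHAC1, a glutathione-degrading enzyme gene on chromosome 15, had 5.33 and 4.98 log2 CPM in HEK 28 and 2.64 to 4.99 in the FL libraries, where FL clone 9 held 4.69 and 4.99, so the groups touched. ASNS, the asparagine synthetase gene, had 8.86 and 8.91 against 7.23 to 9.07, a difference of 0.43 on a chromosome whose median was -0.41. Its FL values were lowest in FL clone 7, at 7.23 and 7.50.

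**Figure D4:**
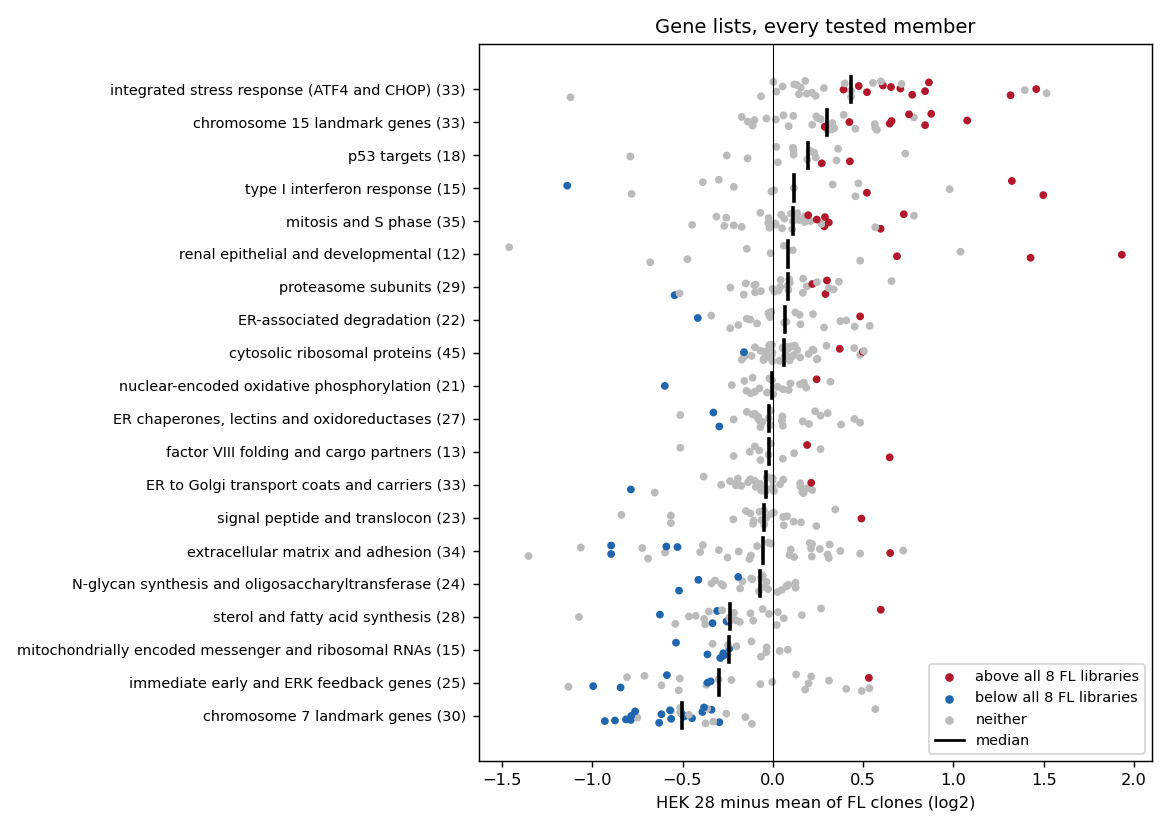
Difference between HEK 28 and the mean of the FL clones (log2) for every tested member of the gene lists with at least 12 members (number in brackets), coloured by position outside the range of the 8 FL libraries, with a bar at the list median. The integrated stress response list has a median of 0.43 with 11 of 33 genes above the FL range, and the chromosome 7 list has -0.50 with 18 of 30 below. Over all genes tested, 6.17% were above and 6.13% below.

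Lists of the secretory pathway that factor VIII uses had at most 3 genes each outside the FL range. Over all genes tested, 6.17% were above and 6.13% below. Of 13 tested partners in folding and transport, 2 were above and none below, with a median of -0.02. The 2 above exceed the share over all genes, but the list is small. LMAN1 had 8.42 and 8.23 log2 CPM in HEK 28 and 8.09 to 8.31 in the FL libraries, and MCFD2 had 6.14 and 5.81 against 5.64 to 6.29. The chaperone gene HSPA5 had 8.73 and 8.65 against 8.47 to 9.06. All 3 overlapped the FL range. The 2 above the range were FURIN and SURF4, a cargo receptor gene (7.00 and 6.97 against 6.65 to 6.93). Of 27 chaperone and oxidoreductase genes none was above and 2 were below: PRDX4, a peroxiredoxin of the endoplasmic reticulum (7.39 and 7.32 against 7.59 to 7.84), and CALU, which lies on chromosome 7 (7.30 and 7.18 against 7.32 to 7.73). Of 24 genes of N-glycan synthesis, 3 were below and none above, OSTC among them (6.22 and 6.29 against 6.47 to 7.01), and the median was -0.07. These 3 also exceed the share over all genes. Degradation from the endoplasmic reticulum (1 above and 1 below of 22), transport to the Golgi (1 and 1 of 33) and the translocon (1 and 0 of 23) were near the background shares. Without FL clone 4, 3 of these degradation genes were above and 4 transport genes below, and without FL clone 7, 5 glycan synthesis genes were below. The 9 regulators of the ATF6 and XBP1 branches of the unfolded protein response had 1 below, CREB3L2, also on chromosome 7 (5.34 and 5.29 against 5.79 to 6.38).

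The counts of the other lists stand beside 6.17% above and 6.13% below over all genes tested. Of 35 genes of mitosis and S phase 7 were above and none below, with a median of 0.11. TOP2A, the topoisomerase of dividing cells, had 11.21 and 11.10 log2 CPM against 9.94 to 10.86, and it lies on chromosome 17, as does AURKB (8.41 and 8.35 against 7.40 to 8.24). The cyclin gene CCNB1 on chromosome 5 had 7.24 and 7.25 against 6.83 to 7.09. Immediate early genes, which growth signals switch on within minutes, had 5 of 25 below and 1 above, with a median of -0.30. EGR1 had 7.71 and 7.63 in HEK 28 and 7.96 to 8.79 in the FL libraries, and FL clone 10 was lowest among these at 8.12 and 7.96, with a list median of its own of -0.30. Across the BDD libraries EGR1 had 10.16 to 11.09. Genes of sterol and fatty acid synthesis had 4 of 28 below and 1 above, with a median of -0.24. FL clone 7 had a median of 0.56 over that list, and without it the HEK 28 median was -0.06. Without FL clone 10, 10 of the 28 genes were below. IDI1, of isoprenoid synthesis, had the smallest p of the list, with 3.96 and 3.65 against 3.90 to 5.86.

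Of 15 mitochondrially encoded RNAs 6 were below the FL range and none above, with a median of -0.24. MT-RNR1, the small ribosomal RNA, had 11.68 and 11.72 against 11.95 to 12.64, and MT-CO2, a subunit of cytochrome oxidase, had 13.20 and 13.41 against 13.53 to 13.78. Without FL clone 10, 10 of the 15 were below. Low levels were not particular to HEK 28, since the BDD clones had list medians of -0.80 to -0.24 against the same FL mean. Mitochondrial reads were 7.87% and 7.98% of HEK 28 libraries and 8.50% to 9.51% of FL libraries. Among nuclear genes of oxidative phosphorylation 1 of 21 was above and 1 below, and the median was -0.004. NDUFA4, a subunit gene on chromosome 7, had 7.83 and 7.92 against 8.27 to 8.63. Targets of p53 had 2 of 18 above and none below (median 0.20, and 4 above without FL clone 4), interferon response genes 3 of 15 above and 1 below, proteasome subunits 3 of 29 and 1, cytosolic ribosomal proteins 2 of 45 and 1, matrix and adhesion genes 1 of 34 above and 4 below, and coagulation-related genes 0 and 1 of 9. The ribosomal protein and oxidative phosphorylation counts were under the shares over all genes in both directions. These small counts moved with the clones compared: without FL clone 7, 6 proteasome and 3 oxidative phosphorylation genes were above and 8 matrix genes below. Without FL clone 10, 5 ribosomal protein and 3 matrix genes were above, and 3 proteasome, 2 oxidative phosphorylation and 2 coagulation-related genes below. Without FL clone 4, 5 interferon response genes were above and 2 below. BST2, an interferon-induced membrane protein gene, had 2.68 and 2.74 against 0.60 to 1.98. PROCR, the endothelial protein C receptor gene, had 4.43 and 4.32 against 4.88 to 5.66. LAMB1, a laminin chain gene on chromosome 7, had 5.36 and 5.25 against 5.91 to 6.47.

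Markers of the labelled cell type were measured on both sides, some at similar levels and others apart. HEK293 cells express renal developmental and neuronal genes. LHX1, a transcription factor of kidney development, had 4.08 and 4.27 log2 CPM in HEK 28 and 3.86 to 4.70 in the FL libraries, and the neurofilament gene NEFM had 12.11 and 11.95 against 11.97 to 12.12. Of 12 tested renal genes 3 were above the FL range: KRT8 (4.17 and 4.44 against 1.61 to 3.21), KRT18 (6.35 and 6.04 against 5.02 to 5.84) and GATA3 (4.66 and 4.56 against 2.18 to 3.89). None of the 12 was below, and 3 were below without FL clone 7. Over all genes tested, 6.17% were above and 6.13% below. The differences of the 12 renal genes ran from -1.46 to 1.93, with 7 positive, 5 negative and a median of 0.09. An unadjusted limma p under 0.05 was seen for 4 of the 12. KRT8 and KRT18 are the paired keratins of simple epithelia, and their annotated spans overlap. The neuronal enolase gene ENO2 was above (4.57 and 4.78 against 2.18 to 4.02), and INA below, of 9 neuronal genes. Of these 9, 2 had a positive and 7 a negative difference, with a median of -0.07. For other cell types, no hepatocyte marker of 14 was in the table, 1 of 12 leukocyte markers was tested, and the summed level of the fibroblast markers was 27.8 to 33.5 CPM in HEK 28 and 21.4 to 50.8 in the FL libraries. The summed level of the 2 tested endothelial markers was 22.5 and 23.4 CPM in HEK 28 against 14.7 to 20.9, with FLT1 at 4.54 and 4.47 log2 CPM against 3.84 to 4.41. The part of other cells in the results above was not tested.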

How the data were processed

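Total RNA of the clones was sequenced on an Illumina instrument, per the labels' protocols. The submitters' processing notes name hg38, and as tools TopHat2, Bowtie, cutadapt and FastQC, with no version. How reads were assigned to genes, with which annotation and whether by strand, is not given in the sources used here. In the deposited data is 1 table from the authors of log2 CPM for 15797 genes and 22 libraries. From the values, each library is a whole number of reads per gene plus a prior of about 2 reads (share of whole values 100% within 0.01). The design had foreseen counts. As the unit is log2, limma 3.58.1 in R 4.3.3 was fitted with a trend on the deposited values, as means of libraries a and b per clone, with Benjamini-Hochberg adjustment. Positions and types came from GENCODE release 29, which held all 15797 identifiers.

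Outside the range means that both HEK 28 libraries lay above, or below, all 8 FL libraries. Named genes were to be F8, the 12 of widest gap each way elsewhere, the 6 on chromosomes 7 and 15, each with a mean of at least 2 log2 CPM on the higher side and an adjusted p under 0.05, and the list genes of smallest p. As none passed, the condition on p was dropped after the values were seen, and further list members were chosen after their values were seen. Results for some genes that the rule names are not reported here. The members, lists and comparisons were chosen with earlier results of these data known. Libraries with the same letter in different clones had correlations of deviations from -0.613 to 0.439 (mean 0.0022), so the letters were not taken to pair them. The test was checked on simulated data. Alternatives varied scaling, filter, pseudocount, unit, model and the clones and libraries left in. Python 3.11.15 (pandas 2.3.3, numpy 2.4.6, matplotlib 3.10.9) made tables and figures.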

Additional observations from a re-analysis of the deposited data

Results flagged for a closer look

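In the groups of 4 FL clones, 64 genes and 4 chromosome or stretch medians were examined for 1 clone far from the others, and 5 genes had one. Chance flags about 1 in 20 such groups. OGDHL was 2.31 log2 CPM in FL clone 10, lower than in the other FL clones. INA was 2.55 and MOSPD3 was 3.95 in FL clone 9, the first lower and the second higher than in the others. NIPA1 (2.16) and SRP14 (7.83) were lower in FL clone 4 than in the other FL clones. Both lie on chromosome 15, NIPA1 within the bins from 20 to 40 Mb, where FL clone 4 had low medians (-0.50 and -0.64). SRP14 starts just past these bins, at 40035739, and FL clone 4 had a median of 0.12 in the bin from 40 to 50 Mb.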

How the results depend on the processing

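No gene was called in the limma fit on clone means, and none with other scalings, filters, thresholds or FL clones left out. The count was 2 with a pseudocount of 1, 5 with libraries and the clone as a random block, 4 with the letter as a replicate block as well, and 3 with limma-voom, and it ranged from 0 to 3 when 1 clone or library was left out. Outside chromosomes 7 and 15 these counts were 2, 4, 3, 3 and 0 to 3. The genes called included FCF1P7, NALCN, HMGA2, SLC26A7, FBXL13 and an unnamed pseudogene. edgeR and DESeq2 were not run, since the deposited unit is log2. The number of genes above all FL libraries was 95 with a gap of at least 0.5 and ranged from 1152 to 2039 with 1 clone or library left out, and the number below was 65 and 1169 to 2002. The largest of these values come from leaving out 1 HEK 28 library, which leaves 1 value to lie outside the range. The median of chromosome 7 was -0.38 with a pseudocount of 1 and ranged from -0.42 to -0.39 with clones or libraries left out. The F8 difference kept its direction, from 1.20 to 1.46, and its adjusted p from 0.758 to 1.00. The stretch of chromosome 12 ranged from -0.25 to -0.21 and that of chromosome 17 from 0.33 to 0.44. Of 1123 values for the other 63 named genes, 1110 kept direction and side of the threshold, 13 passed it, and 0 reversed. The causes were not tested. The depth limits genes near the floor, and 0 reads do not show that a gene is silent.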
